A study of Mus musculus with 13 samples.

Results

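Ppara, Pparg, Ppard, Rxra, Rxrb, Ppargc1a and Ppargc1b were taken by symbol from the feature matrix, and all 7 were found among its 32285 genes. The study is single-cell RNA sequencing of colon epithelium, with libraries made by a droplet method that counts molecules from their 3' ends (UMI, unique molecular identifiers). The labels give 2 groups: wild type C57BL/6J mice with the treatment Antibiotic, and Germ-free C57BL/6J mice. The labels name no antibiotic agents, no age and no number of mice, and the control mice that the design mentions were not analysed here. All cells were sorted as EPCAM-positive and CD45-negative, with CD44-positive (proliferative) and CD44-negative (differentiated) cells taken in equal parts after the mice of a condition had been pooled. Each condition was thus 1 pool, with its own batch number in the labels. Condition cannot be told apart from batch, no test between mice was possible, and no p-value is given.

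The peroxisome proliferator-activated receptors (PPARs) are nuclear receptors that bind fatty acids and their derivatives and switch on genes of lipid uptake, storage and oxidation. PPARalpha (Ppara) is best known for fatty acid oxidation and ketone synthesis in fasting, PPARgamma (Pparg) for lipid storage and, in the colon, for a high level in surface epithelium, and PPARdelta (Ppard) is expressed in many tissues. Each binds DNA only as a pair with a retinoid X receptor (Rxra or Rxrb), and PGC-1alpha (Ppargc1a) and PGC-1beta (Ppargc1b) are coactivators that join the receptors to drive mitochondrial genes.

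Before the genes are described, 4 facts about the cells need to be known. The antibiotic pool held 3415 cells and 36530277 UMI in 3 numbered cell sets, and the germ-free pool held 768 cells and 3100880 UMI in 2 sets, numbered 3 and 4. Median UMI per cell was 6599 to 7420 in the antibiotic sets but 1045 and 4681.5 in the germ-free sets, so germ-free values carry wide counting intervals. The antibiotic sets also share cell barcodes: 315 between sets 1 and 2, 48 between sets 1 and 3 and 501 between sets 2 and 3, whereas no barcode was shared with or between the germ-free sets. In all, 810 of 2578 antibiotic barcodes appeared in more than 1 set, the shallower entry had a median of 9.36% of the UMI of the deeper one, and the 837 shallower entries held 3.40% of antibiotic UMI. The antibiotic sets are therefore not independent, and leading results are given below also without these cells. The pools differed too in mitochondrial UMI (12.4% in antibiotic, 18.7% in germ-free cells) and in Xist (209 and 659 CPM, UMI scaled to a total of 1000000). The epithelial markers Epcam, Cdh1 and Krt8 stood at 1473, 718 and 2571 CPM among antibiotic cells, with germ-free levels of 1717, 683 and 2645 CPM. The immune gene Ptprc was at or below 0.55 CPM in both pools.

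Cells were put into 4 gates by marker genes, with none of the 7 genes and no PPAR target used. A cell took the lineage (goblet, crypt or surface colonocyte) with its highest marker score, if that was clear, and colonocytes were split into proximal and distal by regional markers. The proximal, distal, goblet and crypt gates held 921, 238, 367 and 554 antibiotic cells and 99, 92, 152 and 130 germ-free cells, and 1630 cells stayed ungated. The gates separated the genes that define them, which follows from the rule and is no independent check of the gates. In antibiotic cells the goblet mucin Muc2 was at 4641 CPM in the goblet gate against 27.3 in proximal colonocytes, the proliferation gene Mki67 was at 315 CPM in the crypt gate against 5.07, and the distal gene Hoxb13 was at 172 CPM in distal and 5.77 CPM in proximal colonocytes. A difference was called when it reached 1.5-fold and the cell sets did not overlap (conditions) or all pointed the same way (gates), among genes with at least 100 UMI in the cells compared. All intervals are 95% and cover counting error only. Levels are not scaled by transcript length. Differences are called within a gene and not between genes, although genes of a list are also ranked by mean CPM.

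The promoters of Ppara, Pparg and Ppargc1a, the members with the strongest regional patterns, are shown to let their base composition be compared, with the promoter of the target gene Fabp1 as an example of a PPAR site. The stretches lie upstream of the RefSeq start in build GRCm38.p6 and were cut to hold no annotated exon: chr15:85735714-85735775 on the plus strand for Ppara, chr6:115362099-115362291 on the plus strand for Pparg, chr5:51567727-51567926 on the minus strand for Ppargc1a and chr6:71199727-71199826 on the plus strand for Fabp1. The Pparg start is 1 of 3 in the table. Capitals mark the GC box GGGCGG, searched on both strands, in the first 3 and a direct repeat in Fabp1 (AGGNCA, any 1 base, AGGNCA, also on both strands).
Ppara: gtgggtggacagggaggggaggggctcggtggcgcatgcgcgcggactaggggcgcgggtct
Pparg: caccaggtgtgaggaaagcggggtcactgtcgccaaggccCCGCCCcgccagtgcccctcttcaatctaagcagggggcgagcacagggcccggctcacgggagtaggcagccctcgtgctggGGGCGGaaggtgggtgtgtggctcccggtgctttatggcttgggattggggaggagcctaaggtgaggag
Ppargc1a: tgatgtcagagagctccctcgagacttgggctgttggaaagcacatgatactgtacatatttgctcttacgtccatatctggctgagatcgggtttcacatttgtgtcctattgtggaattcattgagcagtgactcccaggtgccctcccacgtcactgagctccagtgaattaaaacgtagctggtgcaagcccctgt
Fabp1: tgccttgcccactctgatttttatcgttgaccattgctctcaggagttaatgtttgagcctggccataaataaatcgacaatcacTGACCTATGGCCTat

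The Pparg stretch holds 2 GC boxes, 210 and 127 bases before the start, and the printed Ppara and Ppargc1a stretches hold none. The printed Ppara stretch has only 62 bases, against 193 for Pparg. In the 300-base promoters, Ppara and Pparg at this start each hold 2 GC boxes and Ppargc1a 0. The Ppara and Pparg stretches are rich in G and C (75.8% and 66.8%), whereas that of Ppargc1a is not (49.0%). RefSeq promoters were found for 6 of the 7 genes (10 promoters of 300 bases, 250 before the start and 50 after it), and Ppargc1b had no entry. At least 1 GC box lay in 7 of these 10, against 35.7% of all 32851 promoters in the table. The 300-base promoters were 74.7% G and C for Ppara, 68.3% for Ppard, 48.7% for Ppargc1a, and 40.3% to 80.3% over the 3 of Pparg, where the median of all promoters was 52.7%. The direct repeat, the arrangement that PPAR and RXR bind together, was found in 0 of the 10, in 0.381% of all promoters and in 1 of the 33 promoters matched to the PPAR target list, that of Fabp1, where it starts 67 bases before the start. A match describes letters only.

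Ppara lies on chromosome 15 (85734983 to 85802819), Pparg on 6 (115360951 to 115490399), Ppard on 17 (28232700 to 28301474), Rxra on 2 (27676440 to 27762957), Rxrb on 17 (34031812 to 34038399), Ppargc1a on 5 (51454250 to 51567726) and Ppargc1b on 18 (61298136 to 61400431), by GENCODE vM21 (mm10). Pparg overlaps the antisense gene Gm44079, which had 107 UMI against 14111 of Pparg. Whether counting used strand is not stated in the labels.

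Among antibiotic cells, where depth was highest, Ppara had its highest gate level in proximal colonocytes. Its level there was 155, 130 and 135 CPM in sets 1, 2 and 3, against 60.4, 39.2 and 34.9 CPM in distal colonocytes, 43.8, 54.4 and 49.7 CPM in goblet cells and 62.4, 63.6 and 56.3 CPM in crypt cells. Every proximal value stood above every value of the other gates. The ratio of proximal to distal colonocytes was 3.26 (2.73 to 3.93) and that of proximal to crypt cells 2.28 (2.03 to 2.56), and both were called.

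Pparg showed the same order at its upper end and a different one below it. It stood at 533, 487 and 504 CPM in proximal colonocytes of sets 1, 2 and 3, and at 196, 230 and 303 CPM in distal colonocytes. Goblet cells had 168, 204 and 196 CPM and crypt cells 177, 133 and 130 CPM. Proximal colonocytes were again above all other gates in every set, and the other 3 gates lay close together in set 1. Proximal colonocytes had 1.97 times (1.83 to 2.13) the distal level and 3.53 times (3.29 to 3.80) the crypt level, and distal colonocytes 1.79 times (1.62 to 1.98) the crypt level. The last call was lost in 7 of 21 other ways of processing, among them without set 3 (log2 of 0.51 in place of 0.84).

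Ppard, the widely expressed member, was the flattest of the 3 receptors. Proximal, distal and crypt levels of 156, 168 and 175 CPM lay within 1.5-fold of each other, and the goblet level of 246 CPM (226, 264 and 243 in the sets) was the highest, 1.41 times (1.28 to 1.55) that of crypt cells. None of its 4 gate comparisons in antibiotic cells was called.

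The RXR partners had few UMI. Rxra, which pairs with many nuclear receptors, was at 47.4 CPM in proximal colonocytes (50.03, 40.4 and 51.3 in the sets), 34.8 in distal colonocytes, 17.2 in goblet cells and 23.3 in crypt cells (23.1, 22.9 and 23.7). Its proximal level was 2.04 times (1.69 to 2.47) that of crypt cells, a call. Rxrb was lower in colonocytes, with 14.2 CPM in proximal and 13.0 CPM in distal cells, than in crypt cells with 22.4 CPM, and both differences were called. The Rxrb ratio of proximal to crypt cells, 0.63 (0.51 to 0.80), reversed in cells thinned to 1000 UMI each, where its log2 was 0.63. At that depth only 46 of 2891 antibiotic cells held an Rxrb UMI, and no call was made. Without set 3 neither Rxrb call was made (log2 of -0.54 and -0.64).

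Ppargc1a ran against Ppara. In proximal colonocytes it was at 105, 89.9 and 93.4 CPM in sets 1, 2 and 3, in distal colonocytes at 211, 234 and 215 CPM, in goblet cells at 252, 405 and 344 CPM and in crypt cells at 147, 87.4 and 131 CPM. The distal and goblet values stood above the proximal and crypt values in every set, and the proximal and crypt values overlapped. The distal level was 2.32 times (2.12 to 2.55) the proximal level and 1.85 times (1.66 to 2.06) the crypt level, and the goblet level 2.92 times (2.64 to 3.22) the crypt level. All 3 were called.

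Ppargc1b differed from its relative. It was lowest in proximal colonocytes, at 110, 106 and 101 CPM, with 178, 152 and 173 CPM in distal, 149, 183 and 163 CPM in goblet and 207, 159 and 139 CPM in crypt cells. The proximal values lay below all others. Distal colonocytes had 1.61 times (1.45 to 1.78) and crypt cells 1.56 times (1.44 to 1.69) the proximal level, both called. Each call was kept in 17 of 21 other ways of processing. The first was lost with thinned cells, gates with no margin, per-cell means and the other region markers. The second was lost, among others, without set 1 (log2 of -0.53). Goblet over crypt was 1.02 (0.92 to 1.14).

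In antibiotic cells 13 of the 28 combinations of gene and gate pair were called. From proximal to distal colonocytes, 2 of 7 members were higher in proximal cells and 2 higher in distal cells, where 12.7% and 10.5% of 8645 genes tested were called. For proximal over crypt cells the counts were 3 higher and 2 lower, beside 16.2% and 43.2% of 9708 genes. For distal over crypt cells they were 2 higher and 1 lower, beside 12.9% and 40.9% of 8314 genes, and for goblet over crypt cells 1 higher and 0 lower, beside 9.61% and 22.4% of 8419 genes. The median gene was lower in proximal than in crypt cells (log2 of -0.43), so the Ppargc1b and Rxrb calls there sit near the median of all genes, and those of Ppara, Pparg and Rxra lie on the other side of it.

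All 13 calls were kept when only the deepest entry of each shared barcode was kept, with log2 ratios of 1.69 for Ppara, 0.97 for Pparg and -1.22 for Ppargc1a between proximal and distal colonocytes against 1.68, 0.98 and -1.21 with all cells. With no cell whose barcode was shared they were 1.74, 0.87 and -1.16. The ratios of proximal over crypt cells were then 1.08 for Ppara and 1.90 for Pparg, and that of goblet over crypt cells 1.18 for Ppargc1a, against 1.17, 1.81 and 1.54 with all cells. The Rxrb difference between distal and crypt cells was the 1 member call lost there, at a log2 of -1.01.

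**Figure D1:**
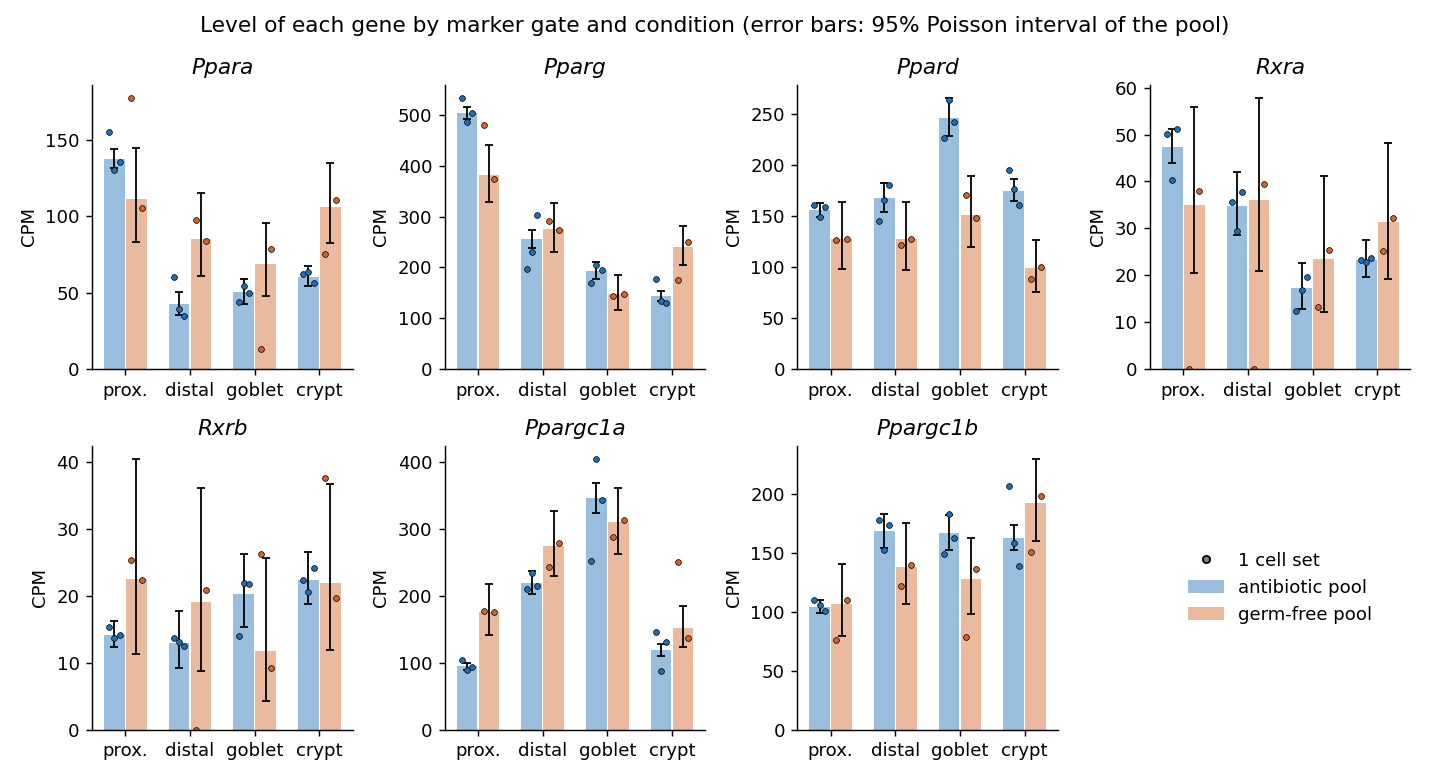
Level (CPM) of each gene by gate and condition; bars are the summed pool, error bars its 95% Poisson interval and points the cell sets. In antibiotic cells Ppara and Pparg were highest in the proximal gate, 138 and 504 CPM, and Ppargc1a in the goblet gate, 346 CPM.

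Regional scores were also read within the crypt and goblet gates. Among antibiotic crypt cells, 119 with proximal and 338 with distal marker scores, Ppara was at 104 and 50.3 CPM, a ratio of 2.07 (1.62 to 2.64), Pparg at 269 and 103 CPM, a ratio of 2.60 (2.22 to 3.05), and Ppargc1b at 236 and 133 CPM, a ratio of 1.77 (1.51 to 2.07). In colonocytes Ppargc1b ran the other way, at 104 CPM in proximal and 168 CPM in distal cells. Ppargc1a was level in the crypt, with 120 and 119 CPM. In goblet cells, 50 proximal and 246 distal, it was at 145 and 341 CPM. The distal level was 2.35 times the proximal one, the direction seen in colonocytes. Pparg was at 672 and 135 CPM in the same goblet cells, a ratio of 4.97 (4.08 to 6.03), and Ppara at 96.6 and 41.8 CPM. Proximal colonocytes had Pparg at 504 CPM and Ppara at 138 CPM. Crypt and goblet cells were mostly distal by score, so ratios of proximal colonocytes to crypt cells mix region with lineage. By set, Pparg was at 530, 557 and 776 CPM in proximal goblet cells and at 144, 151 and 117 CPM in distal ones, without overlap, on 167 and 288 UMI. The proximal values rest on only 11, 13 and 26 cells, with 19, 43 and 105 UMI. In germ-free goblet cells, 28 proximal and 104 distal, Ppargc1a was at 169 and 357 CPM and Pparg at 199 and 105 CPM. Germ-free crypt cells, 31 and 78, had Pparg at 241 and 232 CPM, a ratio of 1.04 (0.70 to 1.52).

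Cut into 5 bins from the most proximal to the most distal score over all antibiotic cells, Ppara went from 157 CPM through 125, 93.7 and 61.0 to 33.1 CPM. Pparg peaked in the second bin, at 643 CPM against 446 in the first and 162 in the last. Ppargc1a was lowest in the first bin (94.3 CPM) and highest in the fourth (216 CPM). Along a crypt to surface score, Ppara and Pparg peaked in the fourth of 5 bins, at 163 and 604 CPM, and were lower again in the most surface-like bin, at 95.1 and 381 CPM. Rxra was instead highest in the most surface-like bin, at 47.2 CPM, and lowest in the second, at 17.9 CPM. The bins are cut from a score and are ranges, not cell types.

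**Figure D2:**
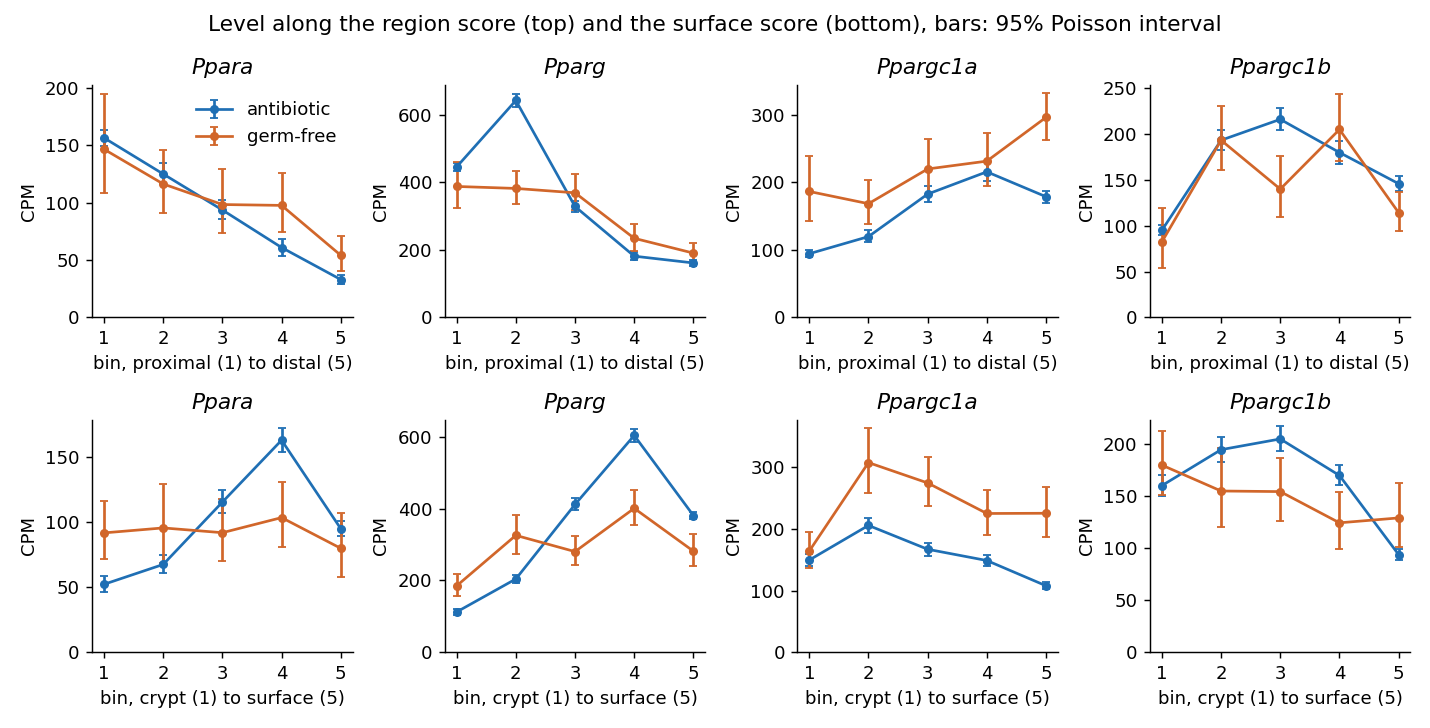
Level (CPM, 95% Poisson intervals) of 4 genes in 5 bins of the regional score (top) and the crypt to surface score (bottom), antibiotic and germ-free cells apart. Antibiotic Ppara falls from 157 to 33.1 CPM along the regional score, and germ-free Ppara from 147 to 54.2 CPM.

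Over all cells, germ-free epithelium held more Ppargc1a and less Ppard than antibiotic epithelium. Antibiotic sets 1, 2 and 3 had Ppargc1a at 151, 143 and 147 CPM, germ-free sets 3 and 4 at 258 and 229 CPM. The sets did not overlap, and the ratio of germ-free to antibiotic cells was 1.59 (1.47 to 1.72). For Ppard the antibiotic sets stood at 194, 201 and 199 CPM, the germ-free ones at 119 and 134 CPM, again without overlap, and its antibiotic level was 1.51 times (1.36 to 1.67) the germ-free level, just past the limit for a call.

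The other receptors differed less. Pparg was at 402, 340 and 358 CPM (antibiotic sets) against 288 and 290.2 CPM (germ-free sets), with antibiotic over germ-free at 1.25 (1.17 to 1.34). Ppara was at 113, 99.5 and 96.5 CPM against 86.8 and 93.8 CPM, at 1.09 (0.97 to 1.23). For both, the germ-free sets lay below all antibiotic sets without reaching 1.5-fold. Rxra (33.5 and 28.7 CPM), Rxrb (16.2 to 17.7 and 16.7 to 19.9 CPM over the sets) and Ppargc1b (152 and 150 CPM) overlapped between conditions. So 1 of 7 members was called higher and 1 lower, where 6.75% and 7.59% of the 11059 genes tested were, and 4 of 7 had sets apart at any size, where 48.7% of genes did. In sums over all cells, fewer cells of a type and less RNA per cell cannot be told apart.

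**Figure D3:**
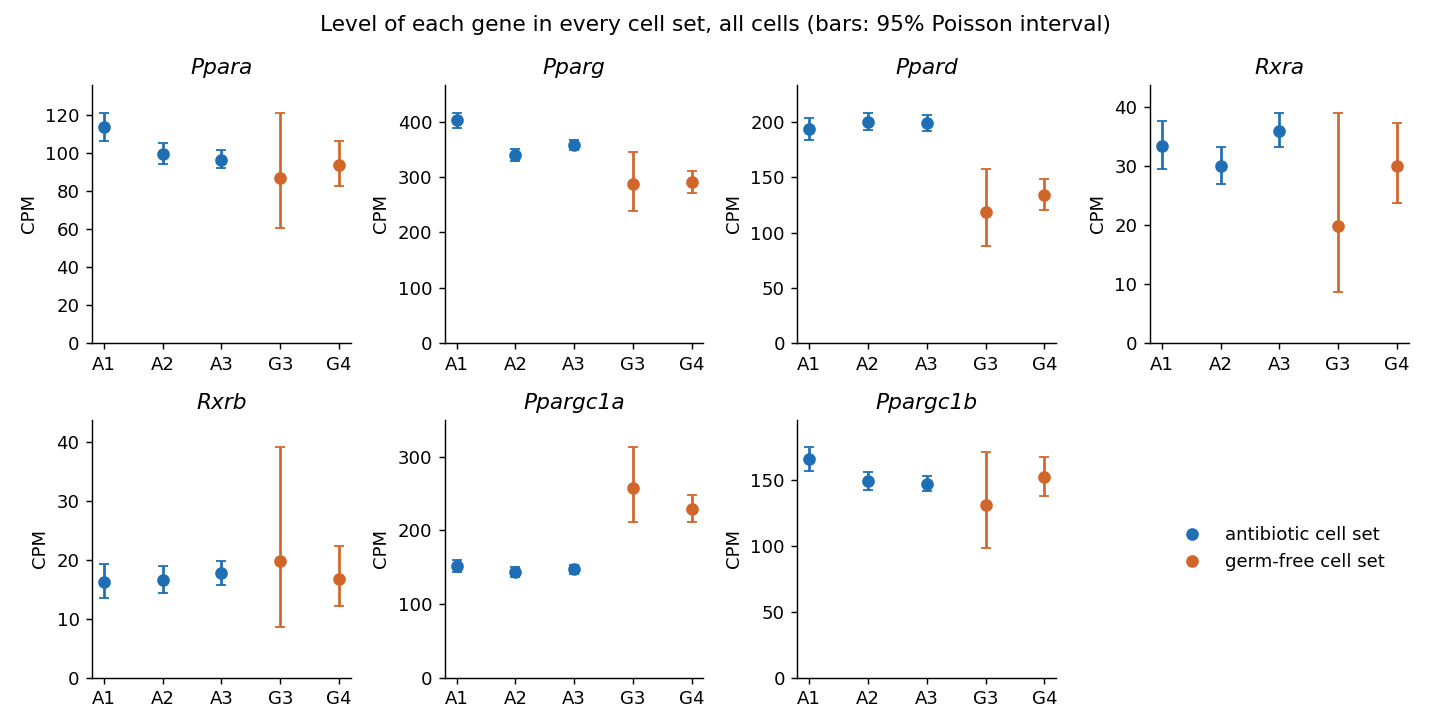
Level (CPM, 95% Poisson intervals) of each gene over all cells of every cell set; A1 to A3 are antibiotic sets and G3 and G4 germ-free sets. Ppargc1a is at 258 and 229 CPM in the germ-free sets and at most 151 CPM in the antibiotic sets, and Ppard at 119 and 134 CPM against at least 194 CPM.

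The 2 differences did not have the same footing. The Ppard call over all cells was lost in 9 of 19 other ways of processing, with log2 ratios of -0.86 to -0.48 around the main -0.59, among them leaving out antibiotic set 2 or 3, germ-free set 3, or every cell with a shared barcode (-0.58 in 3 of these, -0.57 without germ-free set 3). The Ppargc1a call was lost in 2 of 19: with equal weights of the 4 gates its log2 ratio was 0.23 in place of 0.66, and with totals without the 3 genes Gm42418, AY036118 and Lars2 it was 0.58. Goblet cells, where Ppargc1a was highest, made up 10.7% of antibiotic and 19.8% of germ-free cells, and proximal colonocytes, where it was lowest, 27.0% and 12.9%. The part of the sort on CD44 in such shares was not tested.

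Within gates, the Ppargc1a call was made in 1 gate of 4, proximal colonocytes, with germ-free cells higher. There it was at 177 CPM in both germ-free sets against 105, 89.9 and 93.4 CPM in the antibiotic sets, a ratio of 1.87 (1.48 to 2.32), with 7 and 79 UMI in the germ-free sets. Distal colonocytes had 276 and 220 CPM (1.25, 1.03 to 1.51), goblet cells 310 and 346 CPM (0.90, 0.75 to 1.06) and crypt cells 152 and 119 CPM (1.28, 1.02 to 1.58) in germ-free and antibiotic cells. The call in proximal colonocytes was kept in all 21 other ways of processing, with log2 ratios of 0.81 to 1.23. Whether the gates differ from each other in this was not tested.

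Ppard was called lower in germ-free goblet and crypt cells. In crypt cells the antibiotic sets stood at 195, 176 and 160 CPM and the germ-free sets at 87.7 and 100.1 CPM, an antibiotic level 1.77 times (1.37 to 2.33) the germ-free one. In goblet cells the values were 226, 264 and 243 CPM against 170 and 148 CPM, 1.63 times (1.29 to 2.09). The crypt call was kept in all 21 alternatives (log2 of -1.76 to -0.59) and the goblet call in 20 (-0.53 without germ-free set 4). Germ-free set 3 gave 7 UMI in crypt cells. In proximal and distal colonocytes the germ-free level, 127 CPM in both, lay below every antibiotic set without reaching 1.5-fold.

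Ppara was called higher in germ-free distal and crypt cells. In distal colonocytes the germ-free sets had 97.4 and 83.6 CPM against 60.4, 39.2 and 34.9 CPM, a ratio of 2.01 (1.37 to 2.88) on 4 and 36 germ-free UMI. In crypt cells they had 75.2 and 111 CPM against 62.4, 63.6 and 56.3 CPM, a ratio of 1.76 (1.33 to 2.28). In proximal colonocytes the germ-free sets (177 and 105 CPM) overlapped the antibiotic ones. In goblet cells they stood on either side of the antibiotic sets, at 13.1 CPM (1 UMI) and 78.5 CPM against 43.8, 54.4 and 49.7 CPM. The distal call was lost in 6 and the crypt call in 8 of 21 alternatives, the crypt one also with no cell of a shared barcode (log2 of 0.84) and without germ-free set 4 (0.31), where set 3 alone held 6 UMI.

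In crypt cells Pparg was at 241 CPM (germ-free) and 143 CPM (antibiotic), a ratio of 1.69 (1.41 to 2.01). Germ-free set 3 (175 CPM, 14 UMI) lay just below antibiotic set 1 (177 CPM), so no call was made. In 14 of 21 alternatives Pparg stayed without a call there, and in the others, among them no shared barcode, it was called higher. In proximal colonocytes it was at 382 and 504 CPM. Rxrb was called higher in germ-free proximal colonocytes, at 22.6 against 14.2 CPM, on 11 germ-free UMI and with an interval of the ratio from 0.78 to 2.91 that includes 1. Germ-free set 3 held 1 of these UMI, and the call was lost in 8 of 21 alternatives (log2 of 0.27 to 1.44). Rxra, with at most 20 germ-free UMI in any gate, and Ppargc1b had no call in any gate.

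Of the 28 combinations of gene and gate, 25 had at least 100 UMI and 6 were called. In proximal colonocytes 2 of 7 were higher and 0 lower, beside 9.00% and 12.3% of 8253 genes. In distal colonocytes 1 of 6 was higher and 0 lower, beside 9.36% and 8.06% of 4581 genes. In goblet cells 0 of 5 were higher and 1 lower, beside 8.97% and 13.2% of 4982 genes, and in crypt cells 1 of 7 was higher and 1 lower, beside 5.85% and 12.3% of 7672 genes.

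**Figure D4:**
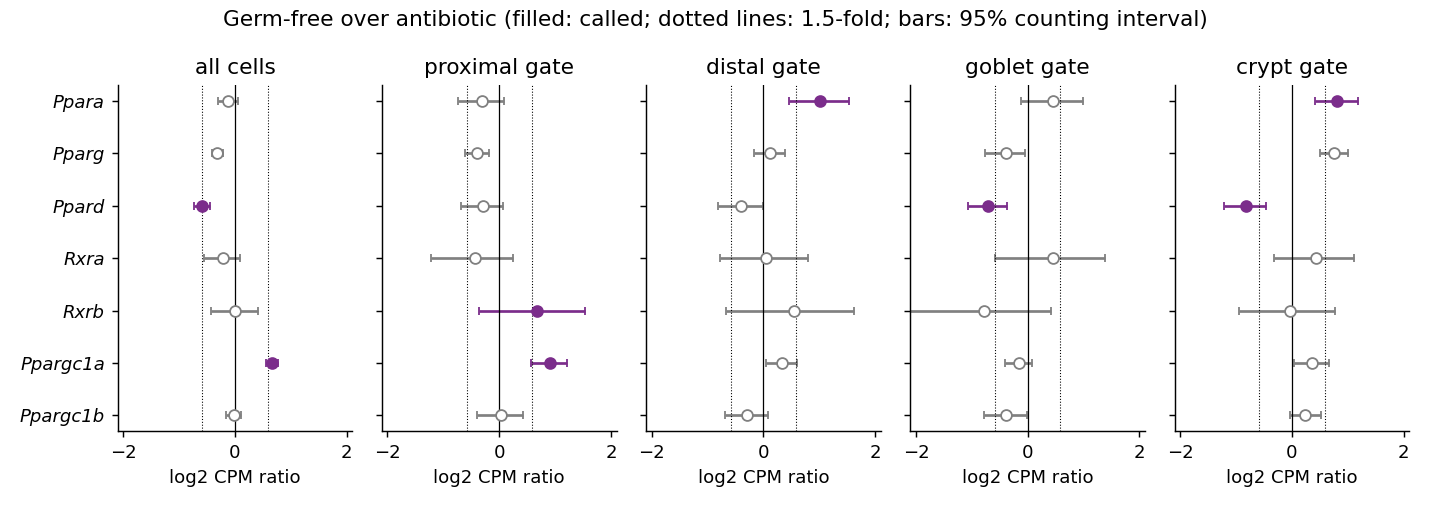
Log2 ratio of CPM, germ-free over antibiotic, with 95% counting intervals, for each gene over all cells and in 4 gates; filled points were called and dotted lines mark 1.5-fold. Ppargc1a in proximal cells (0.89) and Ppard in crypt cells (-0.82) kept their calls in all 21 alternatives.

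Among germ-free cells alone, the proximal levels of Ppara and Pparg stood nearer to their distal and crypt levels than in antibiotic cells, while Ppargc1b and Rxrb (11.8 to 22.6 CPM on 6 to 14 UMI) covered a wider range of levels over the gates. Neither contrast between the conditions was tested. Ppara was at 111 CPM in proximal, 84.8 in distal, 68.7 in goblet and 106 in crypt cells, and the ratio of proximal to distal colonocytes, 1.31 (0.85 to 2.02), had too few UMI for a call, whereas crypt over goblet, at 1.55 (1.02 to 2.40), was called. Pparg was at 382, 276, 147 and 241 CPM in the same order, with proximal over crypt at 1.59 (1.28 to 1.98), called, and crypt over goblet at 1.64 (1.23 to 2.19), also called. Ppargc1a was again highest in goblet and then distal cells, at 177, 276, 310 and 152 CPM, with crypt rather than proximal cells lowest, distal over proximal at 1.56 (1.18 to 2.07) and goblet over crypt at 2.04 (1.58 to 2.66). Ppard was at 127, 127, 151 and 98.5 CPM, with goblet over crypt at 1.53 (1.09 to 2.18), called. Ppargc1b was at 107, 138, 128 and 192 CPM, with crypt over proximal at 1.80 (1.29 to 2.54) and crypt over goblet at 1.51 (1.11 to 2.07).

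Of the 28 combinations of gene and gate pair in germ-free cells, 19 had at least 100 UMI and 8 were called. For proximal over distal colonocytes 0 of 4 members were higher and 1 lower, beside 10.9% and 6.32% of 1630 genes. For proximal over crypt cells 1 of 5 was higher and 1 lower, beside 21.5% and 23.8% of 2007 genes. For distal over crypt cells 0 of 5 were called, beside 396 of 1984 genes called higher and 21.5% called lower, and for goblet over crypt cells 2 of 5 were higher and 3 lower, beside 12.5% and 13.5% of 2095 genes. With cells thinned to 1000 UMI, or without germ-free set 4, 0 germ-free calls were left. Set 3 alone gave a log2 ratio of goblet over crypt cells of 0.20 for Ppargc1a in place of 1.03, -0.28 for Pparg in place of -0.71 and -2.43 for Ppara in place of -0.62. Without set 3, 5 calls were left.

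Of 4 colonocyte markers compared, Car1, Slc26a3 and Cyp2c55 stood closer together between proximal and crypt cells in germ-free than in antibiotic epithelium, and Aqp8 had 0 germ-free UMI in crypt cells. Of 4 goblet markers, Muc2, Zg16 and Clca1 stood further apart between goblet and proximal cells, and Tff3 closer. Car1, a colonocyte carbonic anhydrase, was at 693 CPM (antibiotic) and 1289 CPM (germ-free) in crypt cells, against 16992 and 9722 CPM in proximal colonocytes. Gip, a gut hormone gene of rare endocrine cells, was at 218, 178, 265 and 156 CPM in germ-free proximal, distal, goblet and crypt cells and at or below 0.17 CPM in every antibiotic gate. The summed surface colonocyte list was at 30442 and 20484 CPM in the proximal gate and at 1923 and 2774 CPM in the crypt gate of antibiotic and germ-free cells. In goblet cells Clca1 had 369 CPM (antibiotic) and 2465 CPM (germ-free), against 10.8 and 18.5 CPM in proximal colonocytes, and germ-free Muc2 at 7910 against 39.1 CPM. The part of these differences in the germ-free levels of the 7 genes was not tested.

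A share of cells with at least 1 UMI depends on depth, so cells were thinned to 1000 UMI each, leaving out 524 antibiotic and 143 germ-free cells that were shallower. Ppargc1a was then found in 13.1% (11.9 to 14.4) of antibiotic and 21.6% (18.4 to 25.04) of germ-free cells, where unthinned shares were 46.7% and 43.1% at median depths of 6993 and 2873.5 UMI. Ppard was found in 19.3% (17.9 to 20.8) and 11.7% (9.3 to 14.5), unthinned 60.5% and 34.6%. Pparg was found in 24.8% (23.2 to 26.4) and 21.1% (18.0 to 24.5), unthinned 59.4% and 45.1%. In proximal colonocytes thinned Ppargc1a was found in 9.2% (7.4 to 11.3) of antibiotic and 21.3% (13.4 to 31.3) of germ-free cells. No gate is known to lack these genes, so the level of free RNA behind the shares was not measured.

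The other genes of the pathway were taken from 4 lists. Of 18 cofactors and corepressors 1 was higher and 1 lower in germ-free cells, with a median log2 ratio of 0.06, beside 0.03 for all genes. The counts of this and the next 2 lists stand beside 6.75% of all genes called higher and 7.59% called lower, and are close to them. Prdm16, a coregulator of brown fat, was at 6.79 CPM (antibiotic) and 17.1 CPM (germ-free), and Helz2, a PPAR coactivator, at 26.4 and 13.9 CPM. The most abundant, the corepressor Ncor1 (302 and 313 CPM), the corepressor Nrip1 (270 and 248 CPM) and the coactivator Ncoa2 (166 and 163 CPM), had no call. Of 15 regulators and partners of PGC-1 measured, 1 was higher (Tfam, a mitochondrial DNA factor, 20.6 and 39.7 CPM) and 2 lower (the receptor Esrra, 91.5 and 59.0 CPM, and the factor Foxo3, 177 and 116 CPM), with a median of 0.08. Hnf4a, a regulator of gut epithelium, was at 237 and 236 CPM. The estrogen-related receptor Esrrg was at 26.7 CPM in antibiotic proximal colonocytes and 374 CPM in distal ones (germ-free 28.8 and 206 CPM). The call of Esrra was lost without germ-free set 3, and that of Foxo3 without antibiotic set 3. Of 11 RXR partner receptors measured of 14 listed, 0 were higher and 1 lower, the oxysterol receptor Nr1h2 (26.4 and 17.1 CPM, not called without germ-free set 3), with a median of -0.09. The vitamin D receptor Vdr was at 247 and 235 CPM, the thyroid hormone receptor Thrb at 245 and 251 CPM and the bile acid receptor Nr1h4 at 203 and 199 CPM.

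Of the 38 PPAR targets 33 were measured, and 3 were higher and 11 lower in germ-free cells, with a median of -0.19, beside the 6.75% and 7.59% of all genes. Fabp4, Cyp4a14 and Fgf21 had 0 UMI. The largest decreases were in Mgll, a lipase that frees fatty acids from monoglycerides (106 and 26.1 CPM), Pdk4, a kinase that turns fuel use from glucose to fat (105 and 26.4 CPM), and Acaa1b, a peroxisomal thiolase (16.5 and 4.84 CPM). The largest increase was in Fabp1, a fatty acid binding protein (46.9, 46.5 and 72.3 CPM in the antibiotic sets, 295 and 224 CPM for germ-free), followed by Acsl1, an acyl-CoA synthetase (15.8 and 28.1 CPM), and Slc27a2, a fatty acid transporter (3.15 and 5.80 CPM), whose call was lost in 9 of 19 alternatives. The calls of Mgll, Pdk4 and Fabp1 were kept in all 19, and those of Acsl1 and Acaa1b in 17. The Acsl1 call was lost with equal shares of the 4 gates and with thinned cells, at log2 ratios down to 0.058. In goblet cells, where Acsl1 was highest, it was at 82.7 CPM (antibiotic) and 43.2 CPM (germ-free). In the other gates its germ-free level was the higher one. Fabp2, an intestinal fatty acid binding protein, had 791 and 669 CPM and did not differ by more than 1.5-fold. Germ-free Fabp1 was at 257, 161, 277 and 203 CPM in proximal, distal, goblet and crypt cells, and antibiotic Fabp1 at 49.2, 51.3, 74.98 and 61.0 CPM. Like Gip, it was above the antibiotic level in all 4 gates, and the part of RNA from other cells in this was not tested.

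In antibiotic cells the targets were, like Ppara and Pparg, mostly higher in proximal colonocytes. Of 30 measured, 19 were higher in proximal than in distal colonocytes and 0 lower, beside 12.7% and 10.5% of all genes, with a median log2 of 0.72 beside 0.03 for all genes. Over crypt cells 24 of 30 were higher and 1 lower, beside 16.2% and 43.2% of all genes, with a median of 1.07 beside -0.43. Fabp2 was at 1602 CPM in proximal and 355 CPM in distal colonocytes, and Pdk4 at 218 and 16.6 CPM. Acsl1 was the 1 target called lower in proximal colonocytes than in crypt cells, at 5.91 against 21.9 CPM, and stood at 82.7 CPM in goblet cells. In germ-free cells 5 of 12 measured targets were higher in proximal than in distal colonocytes and 0 lower, beside 10.9% and 6.32% of all genes, with a median of 0.28. By condition, 10 of 28 targets were lower and 1 higher in germ-free proximal colonocytes (median -0.46), beside 12.3% and 9.00% of all genes. In distal colonocytes 5 of 21 were higher and 1 lower (median 0.21), beside 9.36% and 8.06%, in goblet cells 3 of 18 higher and 4 lower (median 0.19), beside 8.97% and 13.2%, and in crypt cells 6 of 23 higher and 1 lower (median 0.17), beside 5.85% and 12.3%.

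**Figure D5:**
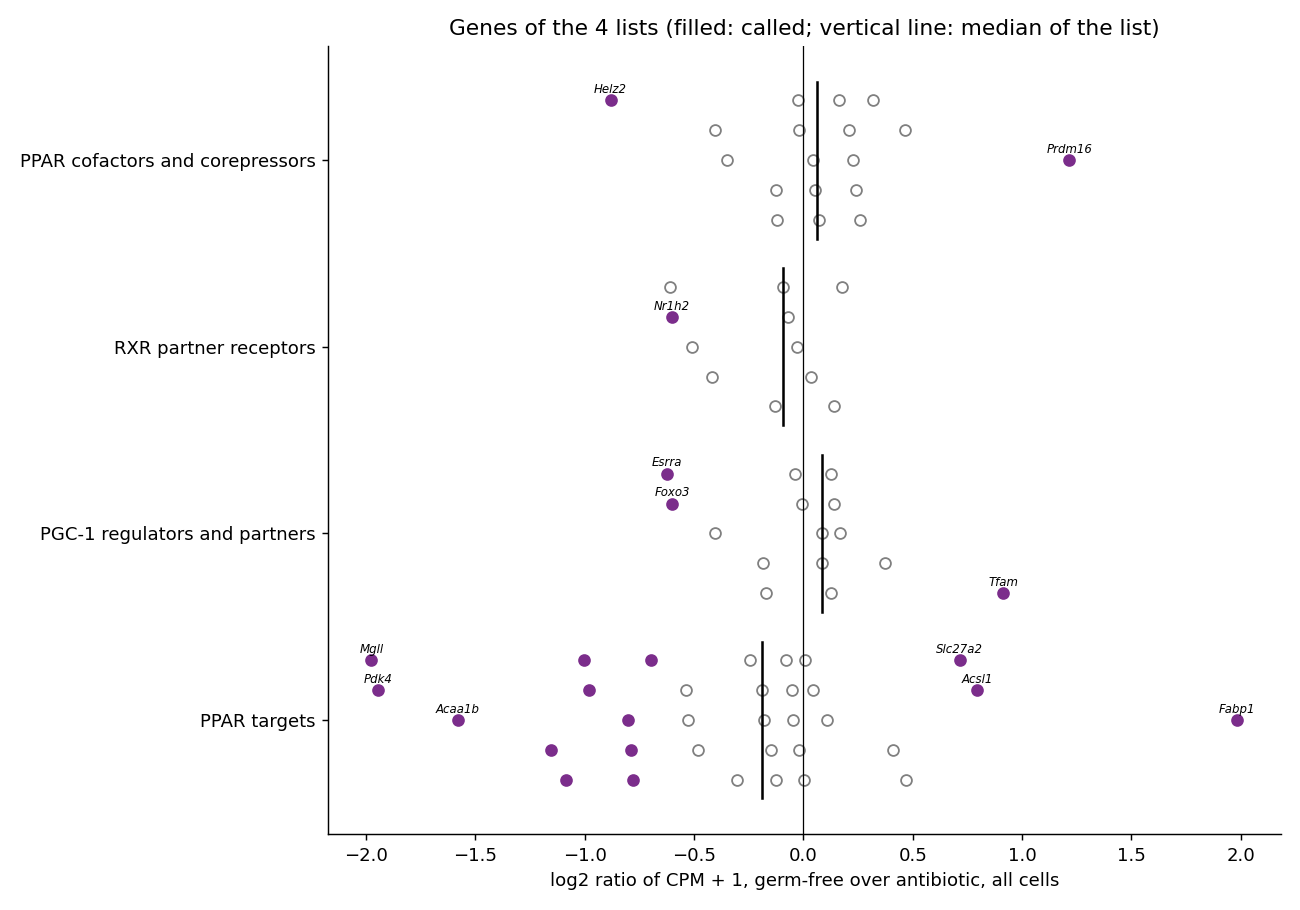
Log2 ratio of CPM + 1, germ-free over antibiotic over all cells, of each measured gene of 4 lists; filled points were called, up to 3 called genes in each direction are labelled, and vertical lines are list medians. The PPAR targets reach from -1.98 (Mgll) to 1.98 (Fabp1), with 11 called lower and 3 higher, and the other 3 lists have medians between -0.09 and 0.08.

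Across the 8 profiles of 4 gates in 2 conditions, the genes most like each member were found by Pearson correlation of log2 levels among 8121 genes. For Ppara they were Gclc (r = 0.98), the glutathione synthesis enzyme, Isx (0.97), a gut homeobox gene, and Cyp2c65 (0.96). For Pparg they were Ifit1bl2 (0.99), Tmem139 (0.98) and Fmo5 (0.98), for Ppard Grtp1 (0.98), Tmem248 (0.97) and Ubr4 (0.97), and for Rxra Akr1c12 (0.98), Ghitm (0.98) and Kctd12 (0.98). Ppargc1a was most like Plcl2 (0.96), Gm42941 (0.93) and Ankrd12 (0.92), and Ppargc1b like Arrdc3 (0.96), Zfp292 (0.94) and Ccdc122 (0.94). Rxrb, with 674 UMI in all, was closest to Mettl6 (0.98), Fnta (0.96) and Hdac11 (0.96). Among the members the highest correlation was that of Pparg with Rxra (0.83), then Ppara with Pparg (0.67), and the lowest that of Ppara with Ppard (-0.64). The profiles share their pools and depth, and the values describe 8 points.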

How the data were processed

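Cells of 5 numbered cell sets (antibiotic 1, 2 and 3, germ-free 3 and 4) were analysed. The authors deposited natural log values, ln(1 + UMI scaled to 10000 per cell), as read from the values: each cell's back-transformed values sum to 10000. Whole UMI counts were recovered from them, with 100% of 9481333 nonzero values whole within 0.01 when the smallest value of a cell was taken as 1 UMI. Cell Ranger 7.0.0, kallisto, bustools and the build mm10 are named in the submitters' processing notes, with no roles. The germ-free set numbers do not match the library numbers, so sets were assigned to conditions only, and 0 sample columns were left unmapped. The 8 sample barcode libraries were not analysed here.

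Gates used 50 marker genes. The score of a list was its mean z-score over cells, a lineage had to be above 0 and lead by 0.2, and regions were split at 0.1 either side. UMI were summed per gate and set and scaled to CPM. Poisson intervals of CPM, conditional binomial intervals of ratios and Clopper-Pearson intervals of shares are exact, at 95%, and cover counting error only, as do limits of 3 counts. Log2 ratios have a pseudocount of 1 CPM. With 1 pool per condition no test was run. The calling step was tested on simulated data with independent counts and changes larger than the 1.5-fold limit. That test does not cover cell sets that share barcodes. Scrublet marked 17 cells (0.41%), which were kept.

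The 7 genes and all lists were chosen with earlier results of these data known. Named beside them are, per gene, the 3 most similar genes, and, per list, the 3 with the highest mean CPM and up to 3 called in each direction with the largest change. Some genes that this rule names are not reported here. Alternatives covered scaling, pseudocount, filters, thinning, gate margins, region markers, pool composition and each set left out. Those without Gm42418, AY036118 and Lars2, without Scrublet's cells, with Y-gene cells and without shared barcodes were added after seeing the data. The tools were Scanpy 1.11.5, SciPy 1.17.1, pandas 2.3.3, NumPy 2.4.6 and matplotlib 3.10.9 under Python 3.11.15.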

Additional observations from a re-analysis of the deposited data

Results flagged for a closer look

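The difference of Ppard between proximal and crypt cells pointed opposite ways in the 2 conditions. Its log2 ratio was -0.16 for antibiotic cells, against 0.37 for germ-free cells, a gap of -0.533, with every cell set of a condition on its own side and 62 UMI in the smallest group. Germ-free set 3 gave 5 and 7 of its UMI, and over 21 alternatives the antibiotic ratio lay between -0.49 and 0.28 and the germ-free ratio between 0.072 and 0.52. The log2 ratio of Rxra, germ-free over antibiotic, was -0.43 in proximal colonocytes and 0.41 in crypt cells, a gap of -0.842, with 17 UMI in the smallest group. Germ-free set 3 had 0 Rxra UMI in proximal and 2 in crypt cells. The Rxra ratio in proximal colonocytes lay between -5.6 and -0.095 over 21 alternatives, the lowest being set 3 alone, where it is set by the pseudocount, and that in crypt cells between 0.1 and 0.67. Neither gene was called in these comparisons as first processed, and neither difference was tested.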

How the results depend on the processing

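No paired analysis was possible because the cell sets are not tied to numbered libraries, the cDNA libraries of the conditions share no replicate numbers, and no test was run.

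Members called between antibiotic gates numbered 13, and 10 to 14 with a set left out. The 8 germ-free calls became 0 with cells thinned to 1000 UMI, 3 with cells of at least 1000 UMI and at most 15% mitochondrial UMI, and 0 to 8 with a set left out (0 without germ-free set 4, 5 without germ-free set 3). The 6 calls by condition within gates became 3 with gate margins of 0.5 and 0.3, and 6 to 10 with a set left out (10 without germ-free set 4). Over all cells, the 1 member higher became 0 with equal shares of the gates or totals without Gm42418, AY036118 and Lars2, and stayed at 1 with any set left out. The 1 member lower became 0 with the stricter cells, equal shares, a pseudocount of 5 CPM, totals without mitochondrial genes, no shared barcode or no Scrublet cells, and 0 to 2 with a set left out (0 without antibiotic set 2 or 3 or germ-free set 3, 2 without germ-free set 4).

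Of the lists, PGC-1 regulators had 3 calls, 1 with the stricter cells or without mitochondrial totals, and 2 to 5 with a set left out. Cofactors had 2, 1 with at least 20 CPM, and 2 to 6. Targets had 14, 9 with at least 20 CPM or thinned cells, and 14 to 22. RXR partners had 1, then 2 with the stricter cells, equal shares, per-cell means, median-of-ratios factors, no filter or Y-gene cells, 3 without the 3 genes, 0 with a pseudocount of 5 CPM or without mitochondrial totals, and 1 to 3 with a set left out. Each highest count came without germ-free set 4. Over all cells, 18.9% of all genes were then called higher and 22.7% lower, beside 6.75% and 7.59% with all sets. The cause of these shifts was not tested. The Rxrb ratio of proximal to crypt antibiotic cells reversed to a log2 of 0.63 in thinned cells, where 46 of 2891 antibiotic cells held an Rxrb UMI. Totals without mitochondrial genes moved the median of all genes from 0.03 to 0.13, with Ppargc1a at 0.77 and Ppard at -0.48 there. Depth limits Rxra and Rxrb most, and all germ-free gate values.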
